A study of Mus musculus with 12 samples.

Results

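The 532 expressed protein-coding genes of mouse chromosome 10 were followed through 2 fibroblast-derived cell lines. Members were the rows of the deposited table that are protein-coding on chromosome 10 in GENCODE M21 and that had a mean of at least 2 CPM (a gene's count scaled by the total of its library) over the 12 libraries. They were 532 of the 37310 rows in the table, 532 of the 909 protein-coding rows of the chromosome, and 532 of the 10679 protein-coding genes that reached this level on any chromosome. Members just inside the threshold were Fstl3 at 2.14, Stac3 at 2.21 and Gm4924 at 2.30 CPM, and the genes just outside it were Armc2 at 1.94, Gls2 at 1.82 and Scml4 at 1.77 CPM. The chromosome was selected because its genes were lower in the line labelled as the knockout, so every comparison of its members between the lines is a description with no test. The response to PMA was not used to choose the chromosome and was tested. The mean level did include the PMA-treated libraries, so a gene high only with PMA could enter the set through them, as Egr2 did.

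Both lines derive from mouse embryonic fibroblasts (MEFs). The knockout-labelled line (R) lacks HP1γ, the product of Cbx3, per its label, and the HPg line is described as the knockout given HP1γ back. Each line was sequenced in untreated growth and after 30 min with 100 nM PMA (phorbol 12-myristate 13-acetate, given in DMSO), with 3 libraries in each of the 4 groups, described by the submitters as biological triplicates. There is 1 line per genotype, so genotype and line cannot be told apart. HP1γ is one of the heterochromatin protein 1 family, which bind histone H3 methylated at lysine 9 and are also found along transcribed genes. PMA activates protein kinase C and, through the MAP kinase cascade, induces immediate early genes within minutes. The table holds RNA only, and the number of copies of chromosome 10 in either line was not measured here.

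Cbx3 RNA does not tell the lines apart. In HPg libraries 1 to 3 it was 37.1, 37.4 and 41.5 CPM, and in the knockout-labelled libraries 35.5, 39.0 and 35 CPM. With PMA it was 43.1, 33.8 and 38.9 CPM in HPg and 33.3, 26.9 and 35.2 CPM in the knockout-labelled line. The log2 fold change between the lines was -0.08 without PMA and -0.28 with PMA (adjusted p = 0.838 and 0.269, edgeR quasi-likelihood test with Benjamini-Hochberg adjustment). The labels are therefore used as given, and the group is called knockout-labelled throughout. The 12 libraries held 111458145 to 159929347 counts. HPg library 2 had a count for 17822 genes and the other 11 libraries for 19759 to 20656. Of 8 fibroblast markers, 7 exceeded 1 CPM in every library, while the summed level of 5 blood and immune markers was 0.0326 to 0.438 CPM. Summed over 4 genes each, epithelial markers were at 4.38 to 9.30 CPM and endothelial markers at 1.90 to 8.80 CPM, and 1 epithelial marker exceeded 1 CPM in every library.

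The promoters of 7 members are shown. For the highest and lowest members, the first ones with an entry in the promoter reference were taken. Rassf9, Perp and Itga7 among the highest, and Nav3 and Cd24a among the lowest, had no entry and were passed over. Each window runs from 250 bases before to 50 bases after the gene's start in RefSeq (GRCm38.p6), and 444 of the 532 members had an entry. Capitals mark matches on either strand. The motifs searched were the GC box, GGGCGG, and the core of a cyclic AMP response element, TGACG. The TATA box was searched as TATAAA, and the element bound by NF-Y as CCAAT. The CArG box of serum response factor was searched by its usual pattern. A match is a string of letters and not a measured binding site. The first 3 belong to members that were higher in the knockout-labelled line, which are described below. They lie at chr10:78780246-78780545 on the plus strand for Slc1a6, chr10:13868908-13869207 on the minus strand for Aig1 and chr10:62231169-62231468 on the minus strand for Tspan15.
Slc1a6: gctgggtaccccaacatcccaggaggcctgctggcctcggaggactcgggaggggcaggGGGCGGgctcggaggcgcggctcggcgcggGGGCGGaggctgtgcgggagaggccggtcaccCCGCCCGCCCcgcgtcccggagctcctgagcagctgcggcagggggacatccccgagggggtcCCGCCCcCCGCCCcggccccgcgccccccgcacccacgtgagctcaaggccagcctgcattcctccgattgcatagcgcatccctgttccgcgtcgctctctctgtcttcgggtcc
Aig1: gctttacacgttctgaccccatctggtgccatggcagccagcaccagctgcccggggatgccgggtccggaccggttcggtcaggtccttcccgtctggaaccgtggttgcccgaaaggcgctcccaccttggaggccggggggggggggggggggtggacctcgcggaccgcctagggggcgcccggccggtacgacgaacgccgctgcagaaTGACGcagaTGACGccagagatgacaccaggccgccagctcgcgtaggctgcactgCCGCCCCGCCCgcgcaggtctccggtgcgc
Tspan15: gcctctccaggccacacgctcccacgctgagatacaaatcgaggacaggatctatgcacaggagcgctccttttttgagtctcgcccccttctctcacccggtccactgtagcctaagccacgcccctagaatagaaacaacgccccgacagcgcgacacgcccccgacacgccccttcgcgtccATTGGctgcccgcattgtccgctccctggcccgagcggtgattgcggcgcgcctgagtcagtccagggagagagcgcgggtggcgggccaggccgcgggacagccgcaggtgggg
The next 3 belong to members among the 10 furthest below HPg, at chr10:62946779-62947078 on the plus strand for Dna2, chr10:7589567-7589866 on the plus strand for Lrp11 and chr10:43901557-43901856 on the plus strand for Rtn4ip1.
Dna2: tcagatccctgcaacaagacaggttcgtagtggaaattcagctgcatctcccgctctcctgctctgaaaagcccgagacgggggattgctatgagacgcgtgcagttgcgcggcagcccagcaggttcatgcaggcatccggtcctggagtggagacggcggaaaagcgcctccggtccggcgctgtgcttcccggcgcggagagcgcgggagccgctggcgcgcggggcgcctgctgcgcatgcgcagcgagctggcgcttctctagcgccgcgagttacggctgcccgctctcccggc
Lrp11: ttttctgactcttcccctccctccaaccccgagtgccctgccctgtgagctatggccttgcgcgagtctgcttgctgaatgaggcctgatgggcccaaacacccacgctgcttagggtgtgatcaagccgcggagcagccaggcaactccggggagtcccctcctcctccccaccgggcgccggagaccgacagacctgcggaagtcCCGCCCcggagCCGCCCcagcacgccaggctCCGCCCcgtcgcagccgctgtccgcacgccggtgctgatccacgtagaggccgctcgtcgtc
Rtn4ip1: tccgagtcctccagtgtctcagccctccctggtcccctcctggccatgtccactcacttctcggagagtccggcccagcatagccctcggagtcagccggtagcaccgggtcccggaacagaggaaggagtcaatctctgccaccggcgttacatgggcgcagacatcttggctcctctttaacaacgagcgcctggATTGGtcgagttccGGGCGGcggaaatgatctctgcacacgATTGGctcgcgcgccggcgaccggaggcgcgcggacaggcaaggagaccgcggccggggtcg
The last is Egr2, the growth response gene with the largest rise under PMA. Of its 5 starts in the table, the window at the principal transcript is shown, at chr10:67537619-67537918 on the plus strand.
Egr2: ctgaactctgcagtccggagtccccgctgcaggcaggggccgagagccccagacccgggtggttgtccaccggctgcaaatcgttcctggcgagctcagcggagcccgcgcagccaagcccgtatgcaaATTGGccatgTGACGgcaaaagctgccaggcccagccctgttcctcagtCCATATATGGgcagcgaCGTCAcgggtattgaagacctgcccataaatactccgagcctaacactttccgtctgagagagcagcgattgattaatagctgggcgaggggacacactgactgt

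Slc1a6 carried 6 GC boxes and Lrp11 carried 3, whereas Dna2 matched none of the 5 motifs. Egr2 held a CArG box, 2 TGACG matches and a CCAAT match. A GC box stood in 70.9% of the 444 member windows and in 35.7% of all 32851 windows in the table, and a CArG box in 1.35% and 1.63%. TATAAA was in 7.21% of the member windows and 13.6% of all windows, and CCAAT in 36.5% and 37.4%. Among the members whose fold change between the lines was above 0 in both comparisons, 6 of 38 windows held CCAAT (15.8%), beside 141 of 367 (38.4%) for the members below 0 in both. In the same groups a GC box was in 73.7% and 70.6% of windows, and TATAAA in 5.26% and 6.81%. TGACG was in 21.1% and 33.0% of them, and a CArG box in 5.26% (2 windows) and 0.817% (3 windows). TGACG was in 18 of the 31 windows of members that rose with PMA in either line (58.1%), in 31.5% of all member windows and in 20.8% of all windows. Of those 31 windows, 80.6% held a GC box, 6.45% TATAAA, 29.0% CCAAT and 3.23% (1 window) a CArG box. These shares are descriptions of letters in the windows. The 32851 windows were not limited to expressed genes, and their median number of CG pairs was 7.0, beside 24.5 in the member windows. A gap between members and all windows is therefore not read as a trait of chromosome 10.

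Chromosome 10 supplied a smaller share of the RNA in the knockout-labelled line in every library. Its members took 8.74, 8.32 and 8.54% of the counts of the 10679 expressed protein-coding genes in the 3 HPg libraries and 7.36, 6.97 and 7.18% in the 3 knockout-labelled libraries. With PMA the shares were 8.73, 8.29 and 8.61% in HPg and 7.47, 7.07 and 7.20% in the knockout-labelled line. The lowest HPg library stood above the highest knockout-labelled library under both conditions. The means were 8.53% ± 0.21 and 7.17% ± 0.19 without PMA, and 8.54% ± 0.23 and 7.25% ± 0.21 with PMA (SD, n = 3). In these bulk libraries, less RNA per cell and fewer cells with the RNA cannot be told apart.

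The shift was spread over the chromosome's genes rather than carried by a few. Per member, the log2 fold change of knockout-labelled over HPg had a median of -0.30 without PMA, a ratio of 0.812, with quartiles of -0.42 and -0.16. With PMA the median was -0.29, a ratio of 0.818, with quartiles of -0.47 and -0.08. Without PMA 465 members lay below 0 and 67 above, and with PMA 438 lay below and 94 above. Those below 0 were 87.4% and 82.3% of the members, beside 52.0% and 52.4% of the 10147 protein-coding genes of the other chromosomes at the same level, whose median was -0.01 in both comparisons. The interquartile range was 0.26 for the members and 0.31 for the other chromosomes without PMA, and 0.39 and 0.38 with PMA, so the members were displaced as a group. The pooled range of the other chromosomes also holds the differences between their medians. Taken singly, these chromosomes ranged from 0.21 (chromosome 12) to 0.29 (chromosome 13) without PMA. With PMA they ranged from 0.28 (chromosome 3) to 0.39 (chromosome 7), so the members were then at the wide end. Within 0.3 log2 units of the members' own median lay 442 of the 532 without PMA and 380 with PMA.

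Among the autosomes and X, chromosome 10 had the lowest median in both comparisons. The nearest were chromosome 8 (567 genes, medians -0.22 and -0.17) and chromosomes 2 (-0.18 and -0.18) and 6 (-0.17 and -0.21). At the other end stood chromosome 14, with 357 genes and medians of 0.29 and 0.25. Chromosome 10 is therefore the end of a graded series of chromosome medians and not a single displaced chromosome. In single libraries, the median log2 level of the members minus that of the other chromosomes, each gene taken relative to its own mean over the 12 libraries, was 0.14, 0.11 and 0.14 in HPg and -0.11, -0.17 and -0.14 in the knockout-labelled line. With PMA it was 0.16, 0.11 and 0.13 against -0.12, -0.16 and -0.13. No library crossed to the side of the other line.

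**Figure D1:**
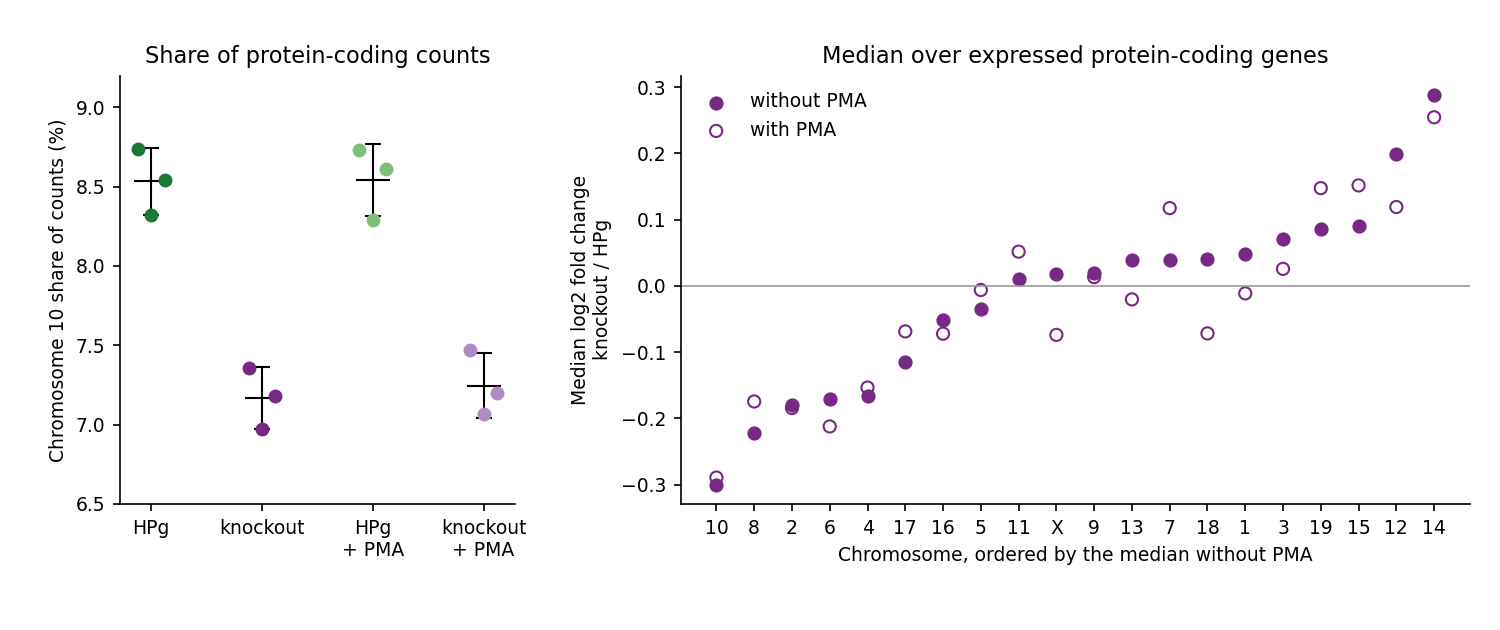
Left, share of the counts of expressed protein-coding genes taken by the 532 chromosome 10 members in each library (points, with mean and SD bars, n = 3, on an axis that does not start at 0). Right, median log2 fold change of knockout-labelled over HPg for each chromosome, where chromosome 10 is lowest at -0.30 without PMA and -0.29 with PMA and chromosome 14 highest at 0.29 and 0.25.

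Separation between libraries was counted as every knockout-labelled library lying below, or above, every HPg library. Without PMA 211 members were separated downward, where the share over all 16630 genes tested was 8.95%, and 11 were separated upward, where it was 9.57%. With PMA 234 were separated downward (12.4% of all genes) and 16 upward (12.5% of all genes). Nothing is read from these counts, because the members were selected on this comparison. In both comparisons 150 members were separated downward and 8 upward, beside 725 and 815 of all genes tested.

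Along the chromosome, every stretch of genes was on the low side. The members were taken in gene order in 21 stretches of 25 (the last of 32), and the median was below 0 in all 21 without PMA and in all 21 with PMA. Without PMA the medians ran from -0.44 in the stretch from Ap3d1 to Mfsd12 to -0.13 in the stretch from Bclaf1 to Rspo3. With PMA they ran from -0.52, from Prep to Dnajb12, to -0.10, in the stretches from Stk11 to Izumo4 and from March9 to Rbms2. The stretch from Amd1 to Atg5 had no member above 0 in both comparisons, and the stretch from Stx11 to Map3k5 had the most, 7 of 25.

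**Figure D2:**
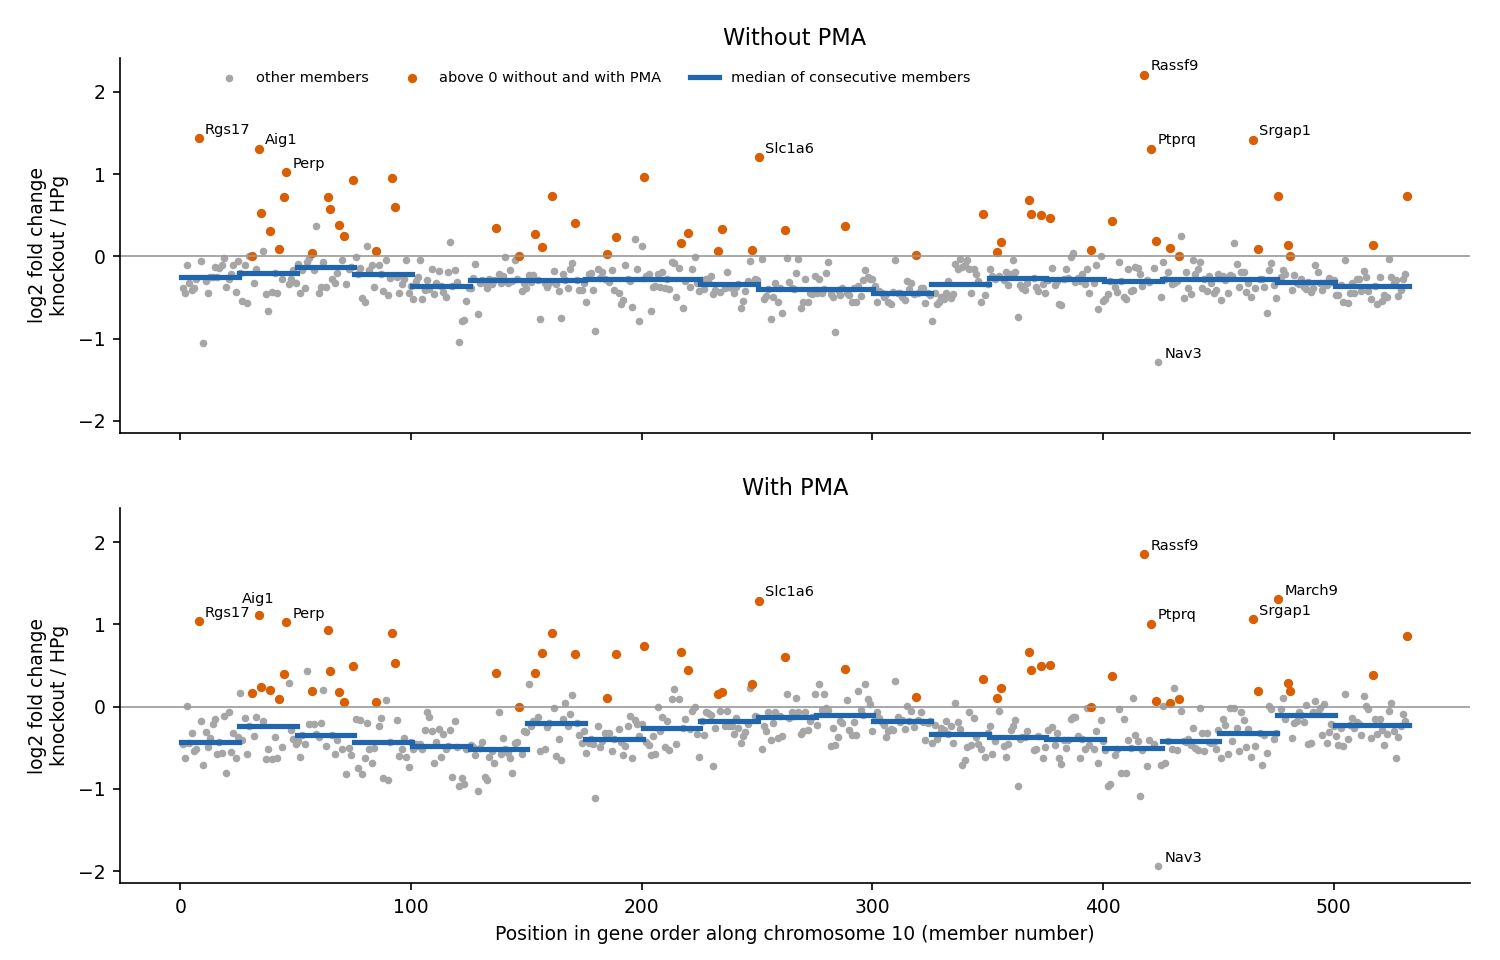
Log2 fold change of knockout-labelled over HPg (vertical axis) for each of the 532 members in gene order along chromosome 10 (horizontal axis), without PMA above and with PMA below. Orange points are the 56 members above 0 in both comparisons, grey points all others, and blue bars the medians of the 21 stretches, all of which lie below 0.

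The profile along the chromosome differed in shape between the comparisons without and with PMA, and the difference followed the base composition of the genes. Its cause was not tested. The GC-rich stretches from Slc1a6 to Sbno2, Stk11 to Izumo4 and Ap3d1 to Mfsd12, with median transcript GC contents of 57.6, 59.6 and 59.6%, had medians of -0.40, -0.40 and -0.44 without PMA and -0.13, -0.10 and -0.18 with PMA. The AT-rich stretches from Prep to Dnajb12 and Tmcc3 to E2f7, at 43.1% GC each, moved the other way, from -0.29 to -0.52 and from -0.30 to -0.50. Over the 21 stretches, the difference between the medians with and without PMA had a Spearman correlation of 0.93 with GC content, given as a description of stretches that share the same libraries. The same tilt ran through the rest of the genome. Across genes, fold change and GC content had a Spearman correlation of -0.24 for the members and -0.16 for the other chromosomes without PMA, and of 0.44 and 0.40 with PMA, and genes are not independent replicates. After the trends with GC content and transcript length over all genes were removed, the stretch medians ran from -0.39 to -0.18 without PMA and from -0.42 to -0.15 with PMA, and the median over all members was -0.32 and -0.31.

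**Figure D3:**
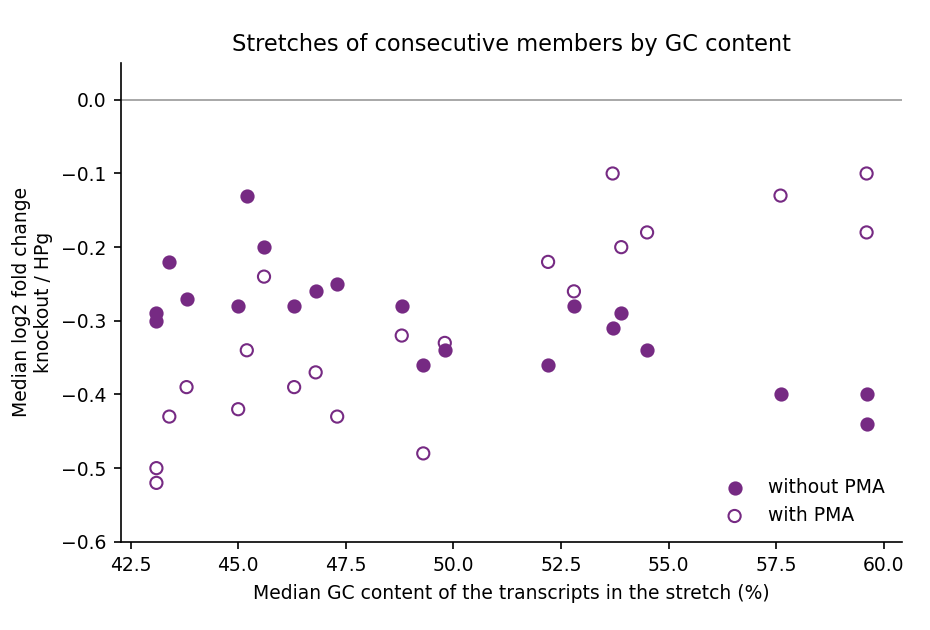
Median log2 fold change of knockout-labelled over HPg (vertical axis) for 21 stretches of consecutive members against the median GC content of their transcripts in percent (horizontal axis). Without PMA (filled) the GC-rich stretches are the lowest, at -0.40 to -0.44, and with PMA (open) they are among the highest, at -0.10 to -0.18.

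The members that escaped the shift were few and scattered. Above 0 in both comparisons were 56 members (10.5%), below 0 in both were 427 (80.3%), and 49 (9.21%) lay on different sides. On the other chromosomes 33.0% of genes were above 0 in both and 37.4% below 0 in both. Of the 56, 44 stood alone between members that were not above 0 in both, and the longest run of consecutive ones was 2. The 12 named next had 23 neighbours on the chromosome, 18 of which were below 0 in both comparisons. Members above 0 in both were most frequent at low expression: 41 of the 177 members with the lowest level per kilobase of transcript (23.2%), 8 of the 178 with middle levels and 7 of the 177 with the highest. The low group also had the widest spread of fold changes, with an interquartile range of 0.41 without PMA against 0.20 and 0.23 in the others. When members were split by GC content into 3 groups of like size, low, middle and high GC held 18, 21 and 17 of them.

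In 8 of the 56, every knockout-labelled library was above every HPg library in both comparisons. Rassf9, a Ras association domain protein, had the largest difference. It was 4.07, 6.52 and 2.98 CPM in HPg and 16.2, 29.8 and 17.0 CPM in the knockout-labelled line, and with PMA 3.04, 5.37 and 2.49 against 14.2, 14.2 and 11.1 CPM. Its log2 fold change was 2.21 (SE 0.35) without PMA and 1.86 (SE 0.35) with PMA. The members on either side of it in gene order had fold changes of -0.36 and -0.29 without PMA, so the high value did not extend to them.

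Slc1a6, a glutamate transporter of the plasma membrane, was 3.22, 9.63 and 4.56 CPM in HPg and 9.94, 20.0 and 10.4 CPM in the knockout-labelled line. With PMA it was 2.27, 8.45 and 4.94 against 9.67, 16.2 and 12.5 CPM, for log2 fold changes of 1.21 (SE 0.49) and 1.29 (SE 0.49). The library numbered 2 was the highest in all 4 groups, and the lines were separated by a narrow margin, 9.63 against 9.94 CPM without PMA. Aig1, a membrane hydrolase of fatty acid esters, was 1.35, 2.79 and 1.37 CPM in HPg and 4.34, 5.19 and 4.16 CPM in the knockout-labelled line, a log2 fold change of 1.31 (SE 0.29), and with PMA its fold change was 1.11 (SE 0.29). HPg libraries 1 and 3 of Aig1 were below 2 CPM, so its higher knockout-labelled libraries helped it into the set. Hivep2, the neighbour of Aig1, was also above 0, at 0.53 and 0.24, but its libraries overlapped between the lines.

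Perp and Dram1 are both known as targets of p53, Perp as a membrane protein of desmosomes and Dram1 as a lysosomal protein that promotes autophagy. Perp was 8.69, 5.75 and 10.4 CPM in HPg and 15.8, 11.0 and 23.5 CPM in the knockout-labelled line, a log2 fold change of 1.02 (SE 0.32), and 1.03 (SE 0.32) with PMA. Dram1 was 7.15, 6.99 and 6.58 CPM in HPg and 10.7, 8.88 and 9.15 CPM in the knockout-labelled line, a log2 fold change of 0.47 (SE 0.13), and 0.51 (SE 0.13) with PMA. Its 3 libraries lay close together in each group, with a gap between the lines. Mdm2, the ubiquitin ligase that degrades p53 and a p53 target itself, was on the other side, at -0.32 (SE 0.10) and -0.44 (SE 0.10).

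Tspan15, a tetraspanin that partners the protease ADAM10, was the most abundant of the 8. It was 67.9, 52.7 and 51.4 CPM in HPg and 79.7, 77.2 and 70.2 CPM in the knockout-labelled line, and with PMA 53.8, 55.4 and 53.2 against 86.0, 91.5 and 75.8 CPM. Its log2 fold change was 0.40 (SE 0.12) and 0.64 (SE 0.13). Itga7, an integrin subunit that binds laminin, had fold changes of 0.73 (SE 0.27) and 0.86 (SE 0.27) at group means of 2.77 to 5.06 CPM. Enpp1, which makes pyrophosphate from ATP, had 0.57 (SE 0.19) and 0.43 (SE 0.19) at 1.90 to 3.48 CPM. Both were therefore near the level at which genes entered the set. The lowest group mean of Enpp1, 1.90 CPM, was below the 2 CPM needed. At such levels high knockout-labelled libraries help a gene into the set, so its membership and its escape are not independent.

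The other 4 named for a high mean of both fold changes overlapped between the lines in at least 1 comparison. Srgap1, a GTPase-activating protein of Slit and Robo signalling, had 1.42 (SE 0.66) and 1.07 (SE 0.65) and overlapped in both. Ptprq, a receptor-type phosphatase, was 15.3, 49.0 and 13.6 CPM in HPg and 56.7, 97.5 and 39.2 CPM in the knockout-labelled line, with fold changes of 1.31 (SE 0.54) and 1.01 (SE 0.54). Its HPg library 2 was above a knockout-labelled library, although the knockout-labelled library was the higher in each same-numbered pair. Rgs17, an inhibitor of G protein signalling, had 1.44 (SE 0.41) and 1.04 (SE 0.41) and overlapped with PMA only, and March9, a membrane-bound ubiquitin ligase, had 0.73 (SE 0.32) and 1.31 (SE 0.32) and overlapped without PMA only. All 12 stayed above 0 in both comparisons under each alternative run and when any 1 library was left out. Nothing is read from this, because the 12 were picked for separated libraries or for high fold changes. The number of all members above 0 in both ranged from 43 to 58.

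**Figure D4:**
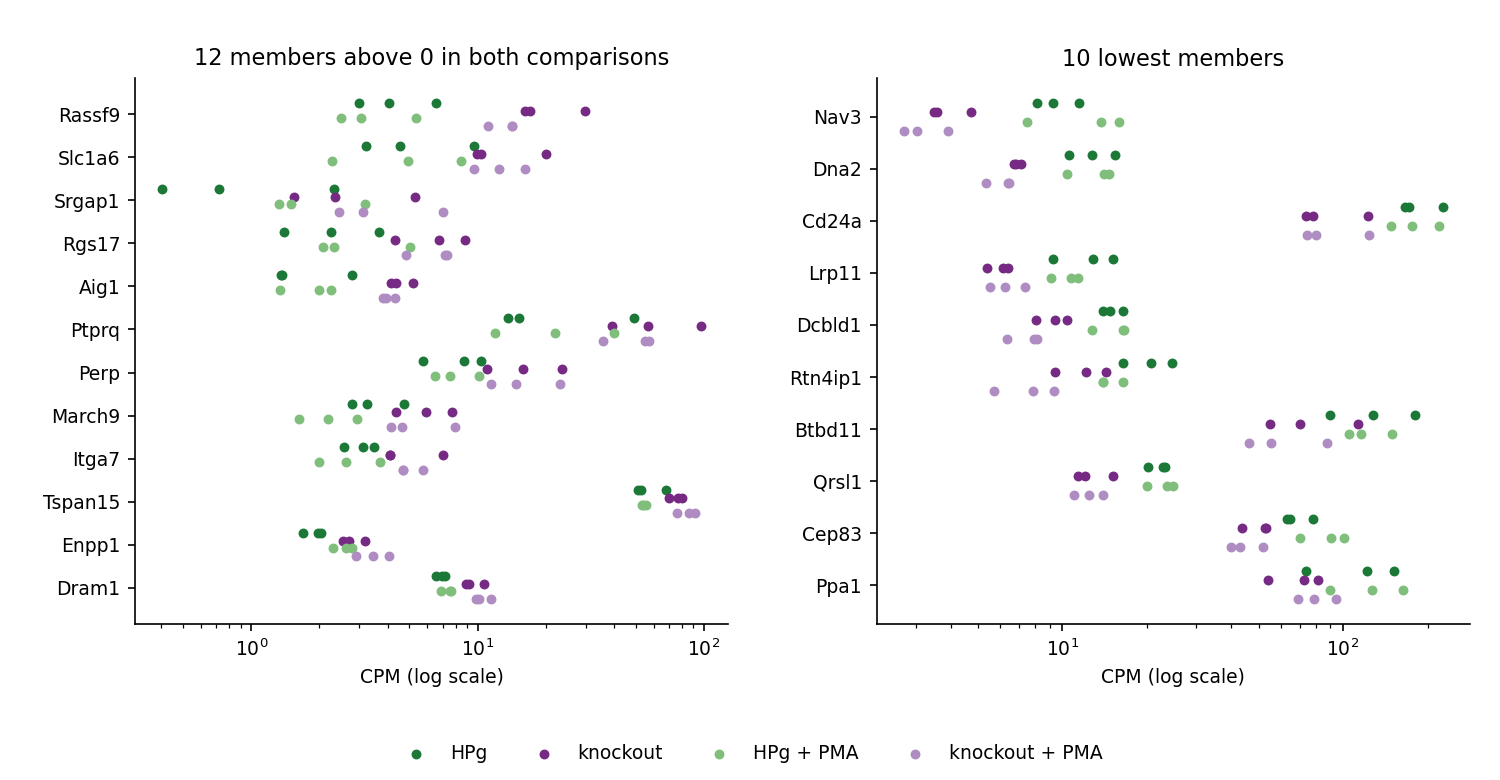
Level of each library in CPM (horizontal log axis) for the 12 named members above 0 in both comparisons (left) and the 10 lowest members (right), with each point 1 library. In Rassf9 the knockout-labelled points lie at 11.1 to 29.8 CPM and the HPg points at 2.49 to 6.52 CPM, and in Nav3 at 2.72 to 4.71 and 7.50 to 15.9 CPM.

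At the low end, the 10 members with the lowest mean of both fold changes lay well under the chromosome's median. Nav3, a microtubule-associated neuron navigator, was the lowest, at 9.25, 8.15 and 11.5 CPM in HPg and 3.48, 3.59 and 4.71 CPM in the knockout-labelled line. With PMA it was 15.9, 7.50 and 13.7 against 2.72, 3.03 and 3.90 CPM. The log2 fold change was -1.29 (SE 0.26) and -1.94 (SE 0.27), a ratio of means of 0.408 and 0.260. Its neighbour Pawr was above 0 in both comparisons, at 0.19 and 0.07.

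Dna2, a nuclease and helicase of DNA replication, was 12.8, 10.6 and 15.4 CPM in HPg and 6.71, 7.11 and 6.82 CPM in the knockout-labelled line, with log2 fold changes of -0.91 (SE 0.17) and -1.11 (SE 0.17). Lrp11, of the low-density lipoprotein receptor family, was 12.9, 15.1 and 9.29 CPM in HPg and 6.12, 6.38 and 5.37 CPM in the knockout-labelled line, at -1.06 (SE 0.19) and -0.71 (SE 0.19). In both, the 3 knockout-labelled libraries varied less than the 3 HPg libraries and lay apart from them. Dcbld1 stood at -0.70 (SE 0.16) and -1.03 (SE 0.16) and was likewise separated in both comparisons.

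Cd24a, Qrsl1 and Rtn4ip1 follow each other on the chromosome and were all among the 10 lowest. Cd24a, a glycosylphosphatidylinositol-anchored surface protein, was 227, 166 and 172 CPM in HPg and 123, 73.9 and 78.3 CPM in the knockout-labelled line, at -1.04 (SE 0.25) and -0.96 (SE 0.25). Qrsl1, a subunit of the mitochondrial glutamyl-tRNA amidotransferase, had -0.79 (SE 0.15) and -0.87 (SE 0.15). Rtn4ip1, a mitochondrial oxidoreductase, had -0.78 (SE 0.21) and -0.94 (SE 0.21). All 3 were separated between the lines in both comparisons. The members flanking the run were at -0.31 and -0.49 before it and, for Crybg1 after it, at -0.54 and -0.52.

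Cep83, a protein of the distal appendages of centrioles, had -0.46 (SE 0.16) without PMA and -0.96 (SE 0.16) with PMA and was separated in both. Btbd11 had -0.74 (SE 0.31) and -0.97 (SE 0.32), and overlapped without PMA. Ppa1, the cytosolic inorganic pyrophosphatase, had -0.75 (SE 0.27) and -0.65 (SE 0.27) and overlapped in both comparisons, with HPg libraries from 73.8 to 152 CPM without PMA. Reads of overlapping genes cannot be assigned with certainty because the submitters' notes name no strand setting for the counting. An annotated gene on the opposite strand overlaps 232 members, among them Itga7, Nav3, Lrp11, Rtn4ip1 and Cep83. Reads of genes with near-identical copies elsewhere, such as Cd24a, Rps12 and Amd1, carry the same uncertainty.

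The gene lists are set beside the members as a whole, of which 80.3% were below 0 in both comparisons and 10.5% above 0 in both. Of 22 members on the list of mitochondrial and metabolic enzymes, 21 were below 0 in both and 0 above 0 in both, with medians of -0.40 and -0.26. The list is a loose one, and also holds the DNA glycosylase Tdg, the RNA polymerase subunits Polr2e and Polr3b, the chaperone Hsp90b1 and the lysosomal Psap. Txnrd1, a thioredoxin reductase, was 273, 257 and 264 CPM in HPg and 163, 202 and 175 CPM in the knockout-labelled line, at -0.56 (SE 0.13) and -0.52 (SE 0.13) with PMA. Tdg had -0.44 and -0.47, Amd1, of polyamine synthesis, had -0.52 and -0.51 and Ndufs7, a subunit of NADH dehydrogenase, had -0.50 and -0.26. All 6 ribosomal and translation members were below 0 in both, with medians of -0.37 and -0.18. Among them Eef2, the translocase of elongation, had -0.33 (SE 0.27) and -0.05 (SE 0.27), Rps12 had -0.45 and -0.37, Mars had -0.37 and -0.19, and Eif4ebp2, which holds back the cap-binding factor eIF4E, had -0.34 and -0.60. Eef2 was at 5300 ± 1440 CPM in HPg and 4200 ± 1070 CPM in the knockout-labelled line (SD, n = 3), and its libraries overlapped.

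Of 18 cell cycle and p53 members, 16 were below 0 in both and 1, Perp, was above 0 in both, with medians of -0.35 and -0.43. Zwint, a kinetochore protein, had -0.36 (SE 0.13) and -0.57 (SE 0.13) and was separated in both, whereas Apaf1, of the apoptosome, was nearly level at -0.01 (SE 0.10) and -0.15 (SE 0.10). Gadd45b, a stress-induced growth arrest gene, had -0.05 without PMA and 0.31 with PMA. Of 19 chromatin and transcription factor members, 17 were below 0 in both and 0 above 0 in both, with medians of -0.30 and -0.21. In that group Nfic had -0.56 (SE 0.12) and -0.33 (SE 0.12), and Dot1l, a histone H3 methyltransferase, had -0.55 (SE 0.15) and -0.07 (SE 0.14). Of 20 signalling members, 16 were below 0 in both and 3 above 0 in both, with medians of -0.30 and -0.28. Gna11, a G protein alpha subunit, had -0.52 (SE 0.13) and -0.28 (SE 0.13), and Lrig3 had -0.37 (SE 0.10) and -0.35 (SE 0.10).

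Of 16 extracellular matrix members 12 were above 0 in both and 4 below 0 in both, with medians of 0.27 and 0.37. Ccn2, a matricellular growth factor, was 84.9, 168 and 79.5 CPM in HPg and 143, 258 and 148 CPM in the knockout-labelled line, and with PMA 118, 201 and 97.8 against 246, 352 and 199 CPM. Its fold changes were 0.72 (SE 0.36) and 0.93 (SE 0.36), and HPg library 2 overlapped the knockout-labelled libraries, although the knockout-labelled library was the higher in each same-numbered pair. Adamts14, a procollagen protease, had 0.74 (SE 0.30) and 0.90 (SE 0.31), Mmp11, a stromal metalloproteinase, had 0.28 (SE 0.22) and 0.44 (SE 0.22), and Chst3, a chondroitin sulfotransferase, had 0.27 (SE 0.22) and 0.41 (SE 0.22). The count of 12 includes P4ha1, a collagen prolyl hydroxylase, which lay above 0 by less than the rounding of its fold change in both comparisons. The 4 below 0 in both, named after their values were seen, were Col6a1, Col6a2, Dcn and Mmp19, at -0.24, -0.30, -0.52 and -0.03 without PMA, and all 4 overlapped between the lines. Of the 16, Enpp1 alone was separated in both comparisons when the libraries are taken without regard to their numbers.

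In the fit without the replicate block, a small part of the members was called with PMA. No group is labelled as given DMSO alone, so effects of PMA and of its solvent cannot be told apart. In HPg 24 of the 532 members rose (4.51%, against 2.53% of all 16630 genes tested) and 2 fell (0.376%, against 0.92%). In the knockout-labelled line 25 rose (4.70%, against 2.81%) and 5 fell (0.940%, against 1.63%), all by the edgeR quasi-likelihood test at an adjusted p below 0.05. Among protein-coding genes of the other chromosomes at the same level, 317 and 355 of 10147 rose. The median fold change of all members with PMA was -0.01 in HPg and 0.01 in the knockout-labelled line, both close to 0. With the replicate number as a block, 72 members rose and 40 fell in HPg (8.62% and 6.19% of all genes), and 55 rose and 45 fell in the knockout-labelled line (6.79% and 6.56% of all genes). Leaving out any 1 of the 6 libraries compared gave 10 to 14 calls in HPg in place of 26. In the knockout-labelled line it gave 14 to 23 in place of 30, with the largest drops without knockout-labelled library 3 (14 calls), knockout-labelled library 2 (19 calls), PMA-treated library 2 (16 calls) and PMA-treated library 3 (18 calls).

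The largest rise was that of Egr2. This gene encodes a zinc finger transcription factor of the immediate early class. It was 0.711, 0.126 and 0.228 CPM in HPg and 57.9, 106 and 66.4 CPM after PMA. Levels were 0.511, 0.294 and 0.455 CPM in the knockout-labelled line and then 111, 115 and 133 CPM. Every untreated library was below 2 CPM, so Egr2 entered the set through its PMA-treated libraries. Its rise is therefore tied in part to that filter. The log2 fold change was 7.75 (SE 0.52, edgeR adjusted p = 5.97e-06) in HPg and 8.16 (SE 0.53, adjusted p = 2.77e-06) in the knockout-labelled line. Its promoter, printed above, was the one of the 7 with a CArG box. Nab2, a corepressor that binds EGR proteins, was 83, 63.8 and 106 CPM in HPg and 192, 267 and 277 CPM after PMA, and rose by 1.54 (SE 0.23, edgeR adjusted p = 0.00336) in HPg and by 1.85 (SE 0.24, adjusted p = 0.000687) in the knockout-labelled line.

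Phlda1, a pleckstrin homology-like protein, was 12.1, 8.65 and 11.7 CPM in HPg and 47.5, 55.2 and 59.2 CPM after PMA. It was 10.1, 7.95 and 7.92 CPM in the knockout-labelled line and then 72.6, 61.6 and 56.3 CPM. It rose by 2.32 (SE 0.17, edgeR adjusted p = 7.49e-06) and by 2.88 (SE 0.17, adjusted p = 1.32e-06). Dusp6, the phosphatase that switches off ERK, was 29.5, 18.9 and 21.8 CPM in HPg and 68.0, 80.7 and 66.5 CPM after PMA, a log2 rise of 1.62 (SE 0.21, edgeR adjusted p = 0.00122), and rose by 2.13 (SE 0.22, adjusted p = 0.00011) in the knockout-labelled line. For both genes every PMA-treated library was above every untreated library of its line. Ddit3, a stress-response transcription factor, rose from 80.7 ± 17.1 to 262 ± 9.82 CPM in HPg and from 66.4 ± 8.14 to 244 ± 21.5 CPM in the knockout-labelled line (SD, n = 3), by 1.70 and 1.88 on the log2 scale (edgeR adjusted p = 0.000104 and 3.16e-05).

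Klf16, a Krüppel-like transcription factor, rose by 1.22 (SE 0.18) in HPg and 1.77 (SE 0.19) in the knockout-labelled line, Dot1l by 1.08 (SE 0.15) and 1.57 (SE 0.15), and Mdm2 by 0.72 (SE 0.10) and 0.60 (SE 0.10), with edgeR adjusted p from 5.82e-05 to 0.0049. These calls and those of Egr2, Nab2, Phlda1, Dusp6 and Ddit3 held in both lines when any 1 library was left out. Tnfaip3, a deubiquitinating enzyme that restrains NF-κB, was 21, 17.7 and 21.4 CPM in HPg and 37.6, 35.7 and 80.7 CPM after PMA, with library 3 far above the others. It rose by 1.36 (SE 0.32, edgeR adjusted p = 0.038) in HPg, a call kept in 2 of the 6 fits that left out a library (adjusted p 0.0333 to 0.129, lost without any HPg library and without PMA-treated library 3). In the knockout-labelled line it rose by 1.99 (SE 0.32, edgeR adjusted p = 0.00422) and was called in all 6. Its PMA-treated libraries there were 47.4, 47.9 and 93.0 CPM, again with library 3 the highest.

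Sgk1, a kinase induced by serum and glucocorticoids, was 218, 83.4 and 125 CPM in the knockout-labelled line and 703, 422 and 456 CPM after PMA. It rose by 1.89 (SE 0.37, edgeR adjusted p = 0.013), a call lost without knockout-labelled library 3 (adjusted p = 0.0723). In HPg its fold change was 1.39 (SE 0.37, adjusted p = 0.0615), and 3.29e-05 with the replicate block. Hmga2, a high-mobility group chromatin protein, rose by 1.22 (SE 0.28, edgeR adjusted p = 0.0328) in HPg, a call lost when any 1 of the 6 libraries was left out (adjusted p 0.0657 to 0.114), and had 1.04 (SE 0.27, adjusted p = 0.0545, and 0.0028 with the replicate block) in the knockout-labelled line. Zwint rose in HPg by 0.69 (SE 0.13, edgeR adjusted p = 0.0143), a call lost without HPg library 2, PMA-treated library 1 or PMA-treated library 3 (highest adjusted p 0.0561), and had 0.48 (SE 0.13, adjusted p = 0.0651, and 0.00598 with the block) in the knockout-labelled line. Rap1b, a small GTPase, rose by 0.61 (SE 0.11, edgeR adjusted p = 0.0105) and 0.55 (SE 0.11, adjusted p = 0.0135), and the second of these calls was lost in 3 of 6 such fits, those without knockout-labelled library 1 or 3 or PMA-treated library 3 (highest adjusted p 0.0676).

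Arid3a, a DNA-binding transcription factor, was the largest fall in HPg. It was 17.9, 20.4 and 22.8 CPM before and 13.5, 8.79 and 12.1 CPM after PMA, a log2 change of -0.83 (SE 0.17, edgeR adjusted p = 0.022), and it fell from 21, 19.7 and 19.1 to 13.0, 9.53 and 10.5 CPM in the knockout-labelled line, by 0.85 on the log2 scale (SE 0.17, adjusted p = 0.0142). The calls were kept in 2 and 3 of the 6 fits that left out a library, with adjusted p up to 0.0937 and 0.0768. In HPg they were lost without library 2 or 3 of either treatment, and in the knockout-labelled line without untreated library 3 or PMA-treated library 2 or 3. Nhsl1, related to actin regulators of the NHS family, had -0.47 (SE 0.11, edgeR adjusted p = 0.0402) in HPg, lost in all 6 such fits (adjusted p 0.0507 to 0.148), and -0.68 (SE 0.11, adjusted p = 0.00466) in the knockout-labelled line, kept in all 6. Wasf1, of the WAVE actin-nucleating complex, Fam13c and the death domain adaptor Cradd fell in the knockout-labelled line by 1.23, 0.78 and 0.77 on the log2 scale (SE 0.31, 0.20 and 0.19; edgeR adjusted p = 0.0423, 0.0493 and 0.0442). Each of these 3 calls was kept in 1 of 6 fits, the one without knockout-labelled library 1, with adjusted p up to 0.173, 0.193 and 0.173 in the others.

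Of the 19 growth response members, 6 rose in HPg and 7 in the knockout-labelled line, and 0 fell. Those in both were Egr2, Phlda1, Ddit3, Dusp6, Mdm2 and Tnfaip3, with Sgk1 added in the knockout-labelled line. Over all genes tested, 2.53% rose in HPg and 2.81% in the knockout-labelled line. The gene lists were chosen with earlier results of these data known, so the counts per list are descriptions and no test of the lists. With the replicate block 9 rose and 4 fell in HPg, beside 8.62% and 6.19% of all genes. In the knockout-labelled line 10 rose and 0 fell with it, beside 6.79% and 6.56% of all genes. The block added Sgk1, Ddit4 and Ccn2 to the rises in HPg (Ccn2 had 0.32 without the block, and -0.04 when PMA-treated library 2 was left out), and Gadd45b, Btbd2, Stat2 and Nuak1 as falls, at -0.49, -0.51, -0.29 and -0.32 on the log2 scale. In the knockout-labelled line it added Ddit4 (1.27), Ccn2 (0.54) and Btg1 (0.61). Socs2, Cited2, Hivep2, Arid5b and Plagl1 passed neither fit in either line, with fold changes from -0.33 to 0.10. In the fit without the block, of the 18 cell cycle and p53 members 2 rose in each line, of the 19 chromatin and transcription factor members 3 rose in HPg and 2 in the knockout-labelled line, and of the 20 signalling members 1 and 2 rose, with 0 falls in these lists. With the block, 1 cell cycle and p53 member and 1 signalling member fell in each line, and 2 chromatin and transcription factor members fell in HPg. The extracellular matrix, ribosomal and metabolic members had 0 calls in either line without the block.

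The response to PMA was alike in direction in both lines. Of the 40 members called in either line, 39 had the same sign in both, the exception being Ccdc138 at 0.50 and -0.01, named after its values were seen. The 14 that rose in both lines were 58.3% of those that rose in HPg and 56.0% of those that rose in the knockout-labelled line, and 2 fell in both. The difference in response between the lines was tested as an interaction, and no member passed (0.0% of all genes, by edgeR without and with the replicate block). At an unadjusted p below 0.05 there were 12 members (2.26%, against 1.97% of all genes) without the block and 68 with it (12.8%, against 7.67% of all genes). All genes tested include ones of lower level and other types. Of the 10147 protein-coding genes of the other chromosomes at the members' level, 185 passed without the block and 977 with it. DESeq2 called 0 members and 1 gene in all. The lowest adjusted p among the members was 1.0. The fold change was larger in the knockout-labelled line for Egr2, Phlda1, Ddit3, Dusp6, Nab2, Tnfaip3 and Klf16, by 0.41, 0.56, 0.18, 0.52, 0.31, 0.63 and 0.55. Of the other rises described above, those of Dot1l and Sgk1 were also larger there. Those of Mdm2, Hmga2, Zwint and Rap1b were smaller there. These differences did not pass the test in either direction.

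**Figure D5:**
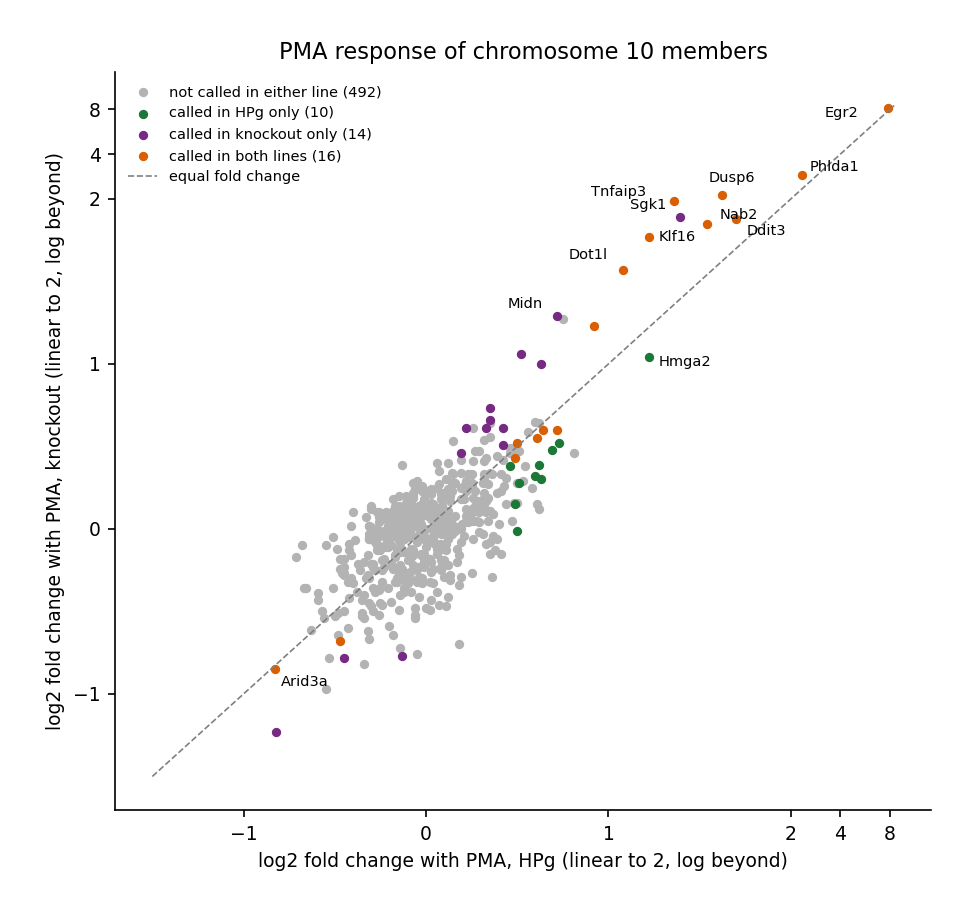
Log2 fold change with PMA in HPg (horizontal) and in the knockout-labelled line (vertical) for the 532 members, on axes linear to 2 and logarithmic beyond. Orange points are the 16 members called in both lines, with Egr2 at 7.75 and 8.16, and the dashed line marks equal fold changes.

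Among the 12 named members that were higher in the knockout-labelled line, 0 were called with PMA in either line, beside 40 of all 532 members. Nothing is read from a count over so few genes. With the replicate block, Srgap1 and March9 passed in HPg at 0.81 and -0.68 (edgeR adjusted p = 0.00678 and 0.0146), and Rassf9 passed in the knockout-labelled line at -0.67 (adjusted p = 0.0223). Of all 56 members above 0 in both comparisons of the lines, Egr2 was the one called with PMA. Its difference between the lines rested on low levels without PMA, with overlapping libraries and a fold change of 0.23 (SE 0.49), and was 0.64 (SE 0.37) with PMA, where every knockout-labelled library was above every HPg library. For the growth response group as a whole the median difference between the lines was -0.17 without PMA and 0.23 with PMA, and the latter shares its libraries with the PMA comparisons.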

How the data were processed

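Total RNA depleted of ribosomal RNA was sequenced as directional paired-end libraries, per the labels' protocols. The authors deposited 1 table of raw read counts per Ensembl gene for 12 libraries. The submitters' processing notes name cutadapt 1.11, STAR 2.5.0a, featureCounts 1.4.6-p3, Subread and mm9. Neither an annotation release nor a strand setting is given in the sources used here. Gene type, gene order and transcript composition came from GENCODE M21, which is on another build.

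CPM levels were computed from the counts with TMM factors. One edgeR 4.0.16 quasi-likelihood fit (robust, filterByExpr with a minimum count of 10, 1 coefficient per group) covered 16630 genes and every member. Benjamini-Hochberg adjustment ran over all genes, with a threshold of 0.05. The fit was also run on simulated counts with a single setting of spread for every gene and no deviations shared by replicate number. That run therefore does not speak for the spread of these libraries. Libraries of a group differed by more than sampling noise (chi-square per degree of freedom 104.1 to 689.2).

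Libraries of the same replicate number tended to deviate alike across groups. Over genes, the deviation of a library from its group's mean had a correlation of 0.309 to 0.786 with that of a library of the same number in another group (18 pairs) and of -0.715 to 0.338 where the numbers differed (36 pairs). This pairing comes from the data, since the labels say nothing of what a number marks, and blocking on it is an alternative.

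The members and gene lists were chosen with earlier results of these data known. Genes named were Cbx3, the 12 highest (those separated in both comparisons first) and 10 lowest by the mean of both line fold changes, per line the 8 largest called rises and falls with PMA, up to 4 per list, and every growth response member. Clone-named genes were left out. Alternatives covered scaling, filtering, DESeq2 1.42.0, GC and length correction, the level threshold, gene types and leaving out each library.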

Additional observations from a re-analysis of the deposited data

How the results depend on the processing

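The median difference between the lines over chromosome 10 kept its sign under every alternative run. Without PMA it stayed between -0.32 and -0.29 under other scalings, filters, level thresholds, all gene types, GC and length correction and the replicate block (-0.30), and between -0.31 and -0.28 when 1 library was left out. With PMA it was -0.36 with library size only, where the median of all genes shifted to -0.06, and -0.32 to -0.27 when 1 library was left out and the block gave -0.29, with the other alternatives between -0.31 and -0.28. The number of members called with PMA depended on the fit, as did the number over all genes, and the cause was not tested. Over all genes, rises and falls in HPg were 421 and 153 without the block, 1433 and 1029 with it, and 787 and 409 with DESeq2. In the knockout-labelled line they were 468 and 271, 1130 and 1091, and 723 and 556. Among the members in HPg, 26 calls became 15 with library size only, 17 with no filter and 112 with the replicate block. They became 47 with DESeq2, 11 in a fit of only the 2 groups and 10 to 14 when 1 library was left out. In the knockout-labelled line, 30 calls became 100 with the replicate block, 51 with DESeq2, 19 in a fit of only the 2 groups and 14 to 23 when 1 library was left out. Library size only gave 25 calls there, split into 14 rises and 11 falls in place of 25 and 5. The interaction had 0 member calls in each. Of the named genes' PMA fold changes, 22 changed sign under some alternative (42 values), 0 of them past the threshold in either fit. With library size only, Apaf1, Eef2 and Mars in the knockout-labelled line were -0.02, -0.06 and -0.05 and Arid5b in HPg was -0.01, and with the replicate block Plagl1 in HPg was 0.02. When 1 library was left out, the ranges in HPg were -0.59 to 0.00 for Adamts14, -0.14 to 0.30 for Arid5b, -0.04 to 0.76 for Ccn2, -0.69 to 0.37 for Cited2, -0.40 to 0.00 for Eef2, -0.10 to 0.49 for Hivep2, -0.25 to 0.08 for Mars, -0.26 to 0.35 for Plagl1, -0.12 to 0.53 for Rps12 and -0.39 to 0.11 for Socs2. In the knockout-labelled line they were -0.39 to 0.00 for Adamts14, -0.26 to 0.11 for Btbd2, -0.32 to 0.00 for Chst3, -0.39 to 0.40 for Cited2, -0.10 to 0.28 for Eef2, -0.21 to 0.11 for Eif4ebp2, -0.08 to 0.05 for Gna11, -0.36 to 0.06 for Hivep2, -0.02 to 0.28 for Mars, -0.13 to 0.08 for Ndufs7 and -0.24 to 0.25 for Plagl1. The cause was not tested.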
